A study of Homo sapiens with 24 samples.

Results

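SNU475 and SNU398 are established human hepatocellular carcinoma cell lines, obtained from the ATCC and both labelled wildtype. The libraries compared here are the 4 that received only the vehicle, DPBS (phosphate-buffered saline): libraries A and B of SNU475, harvested on day 21, and libraries A and B of SNU398, harvested on day 14. They are 4 of the 24 libraries of the series, chosen by line and vehicle and by no measured value. Both lines are cultured tumour cells, each standing for 1 tumour, so line here is also donor. The rest of the series holds HepG2, harvested on day 14, with 2 DPBS libraries that serve here as a further level, and libraries of all 3 lines given decitabine (100 nM daily), GSK-126 (500 nM daily) or the combination for 3 days. Decitabine is an inhibitor of DNA methyltransferases and GSK-126 inhibits the Polycomb enzyme EZH2, and the DPBS libraries are the baseline for both. Line and harvest day change together and cannot be told apart in this comparison. Nothing in the labels ties A and B to separate cultures, so each p-value measures only the spread between libraries.

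Hepatocellular carcinoma arises from hepatocytes, which make most plasma proteins and break down drugs and toxins, and tumours keep these functions to very different degrees. Lines that lose them can keep epithelial keratins and junctions, take on a mesenchymal state rich in matrix and contractile proteins, or express transcription factors of the embryo. Recurrent traits of liver cancer include activity of the beta-catenin branch of Wnt signalling, activity of the antioxidant factor NRF2, re-expression of fetal liver and testis genes, and silencing of genes by promoter DNA methylation or by Polycomb.

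Total RNA without ribosomal RNA was sequenced on a stranded kit, and the values are RPKM, reads per kilobase of gene scaled to library size and then scaled between libraries. The library sizes, recovered from the steps in the RPKM values and in units of 1e6 reads, were 53 and 50.9 in SNU475 and 60.4 and 56.5 in SNU398, of which 69.5% and 69.1% in SNU475 and 63.6% and 63.3% in SNU398 lay in annotated genes. Replicate libraries differed by more than counting noise, and libraries A and B were fitted as the 2 replicates of each group. This difference does not show whether they are separate cultures. Throughout, values are given in the order A and B, a difference is the mean log2 of (scaled RPKM + 0.5) in SNU475 minus that in SNU398, ± is its standard error from limma, and a gene is called where the adjusted p is under 0.05 over all genes tested. RNA came from whole cultures, so fewer cells with a transcript and less of it per cell cannot be told apart.

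Genes most abundant in another line also had low values in these libraries, and for plasma protein genes these values differed between A and B. Of 21 plasma protein genes that reached 100 RPKM or more in HepG2, the median level was 0.688% of HepG2 in SNU475 library A and 0.0634% in SNU475 library B, against 0.0458% in SNU398 library A and 0.00493% in SNU398 library B. Albumin (ALB), the main plasma protein, shows this in full, with 24.1 and 1.09 RPKM in SNU475, against 2.41 and 0.34 RPKM in SNU398, beside 5410 and 5538 RPKM in HepG2. The 12 genes named below as highest in SNU475 stood in SNU398 at a median of 0.0789% (library A) and 0.0555% (library B) of their SNU475 level. The 12 named as highest in SNU398 stood in SNU475 at 0.141% (library A) and 0.237% (library B) of their SNU398 level. Both sets of 12 were chosen for a large difference between these same libraries, so low percentages follow from that choice. The source of these low values was not tested. A level under about 1 RPKM of a gene that is abundant in another line is therefore given as measured and not read as expression. The same holds for higher levels that differ widely between A and B, such as ALB in SNU475 library A.

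**Figure D1:**
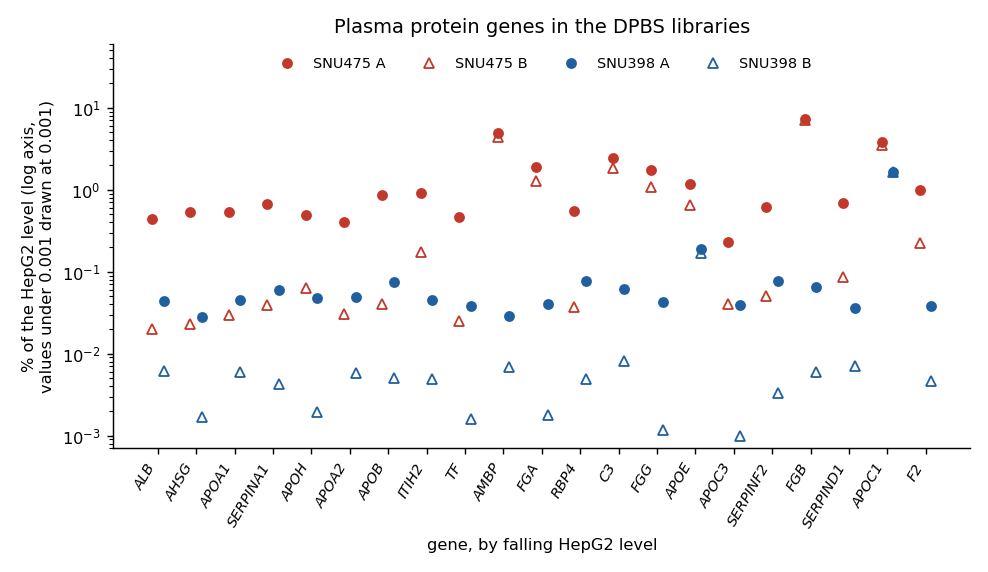
Plasma protein genes at 100 RPKM or more in HepG2, ordered by their HepG2 level, with the level of each DPBS library of SNU475 (red) and SNU398 (blue) as a percentage of the HepG2 mean on a log axis (circles library A, triangles library B). The medians are 0.688% in SNU475 A and 0.0634% in SNU475 B, against 0.0458% in SNU398 A and 0.00493% in SNU398 B, and FGB and APOC1 lie at similar heights in both SNU475 libraries.

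The lines differed across most of the transcriptome. Of 19377 genes tested, 15125 (78.1%) were called, 7748 (40.0%) higher and 7377 (38.1%) lower in SNU475, around a median log2 difference of 0.012. By at least 2-fold, 3335 genes (17.2%) were higher and 2543 (13.1%) lower, and these shares are the background for each gene list below. The excess of higher genes turned without scaling between libraries, with 3087 higher and 3126 lower, and under quantile normalization, with 2970 and 3104. List medians also depend on the scale, since the added 0.5 RPKM damps differences of low genes. With voom on the recovered reads, which works on log counts and adds 0.5 reads in place of 0.5 RPKM, 21 of the 47 list medians moved by more than 0.5 and 16 of 94 counts at 2-fold by more than 1.5 times. Such values are given in parentheses as voom. Of 13741 protein-coding genes tested, 2752 were higher and 1905 lower by that margin. Small nucleolar RNA genes had 11 higher and 43 lower of 282, and pseudogenes had 140 higher and 219 lower of 1797.

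The genes that set SNU475 apart at the top of the range were detoxifying enzymes, calcium-binding S100 proteins, keratins and contractile or matrix proteins. AKR1B10 (chr7:134212344-134226160, hg19), an aldo-keto reductase that reduces reactive aldehydes, had 845 and 834 RPKM in SNU475, against 0.42 and 0.211 RPKM in SNU398 (log2 difference 10.02 ± 0.35, adjusted p = 5.62e-13). S100A6, a calcium-binding protein, had 478 and 493 RPKM in SNU475, against 0.385 and 0.126 RPKM in SNU398 (log2 difference 9.35 ± 0.24, adjusted p = 1.05e-14). NQO1, the quinone reductase, had 544 and 537 RPKM in SNU475, against 0.486 and 0.329 RPKM in SNU398 (log2 difference 9.23 ± 0.22, adjusted p = 5.26e-15). In each of these genes both SNU475 libraries were high, and both SNU398 libraries lay under 1 RPKM. In every gene named below as higher, lower or called, both libraries of one line lay above both libraries of the other. The keratin pair of simple epithelia was among the 12 highest, KRT8 with 348 and 353 RPKM in SNU475, against 0.261 and 0.165 RPKM in SNU398 and KRT18 with 249.9 and 259 RPKM in SNU475, against 0.335 and 0.204 RPKM in SNU398. MYL9, the regulatory light chain of smooth muscle myosin, had 293 and 317 RPKM in SNU475, against 0.239 and 0.153 RPKM in SNU398. SPARC, a matrix glycoprotein, and FLNC, an actin cross-linker, closed the 12 with log2 differences of 7.87 and 7.67.

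The genes at the other end, low in SNU475, were a peptide hormone, a cyclin, replication-dependent histones and developmental genes. GCG (chr2:162999392-163008914, hg19), which encodes proglucagon, the hormone precursor of pancreatic alpha cells and gut, had 0.0076 and 0.254 RPKM in SNU475, against 190.5 and 185 RPKM in SNU398 (log2 difference -8.25 ± 0.22, adjusted p = 2.49e-14). CCND2, cyclin D2, had 0.0201 and 0.274 RPKM in SNU475, against 108 and 106 RPKM in SNU398 (log2 difference -7.41 ± 0.15, adjusted p = 1.04e-15). PCDH9, a neuronal protocadherin, had 0.0048 and 0.139 RPKM in SNU475, against 85.7 and 87 RPKM in SNU398 (log2 difference -7.26 ± 0.14, adjusted p = 2.45e-16). SNU398 was high in both libraries for each, and SNU475 library A was lower than library B. HIST1H3C, a histone H3 gene, had 0.668 and 0.411 RPKM in SNU475, against 230.4 and 218 RPKM in SNU398. HIST1H1B, a linker histone, had 1.21 and 1.46 RPKM in SNU475, against 252 and 254 RPKM in SNU398. The histone H2B genes HIST1H2BB, HIST1H2BE and HIST1H2BM were also among the 12 with log2 differences of -7.08, -7.13 and -6.81, and the near-identical histone copies make single histone values uncertain. EFNB2, the ligand ephrin-B2, and EPHA7, an ephrin receptor, had log2 differences of -6.48 and -6.34.

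**Figure D2:**
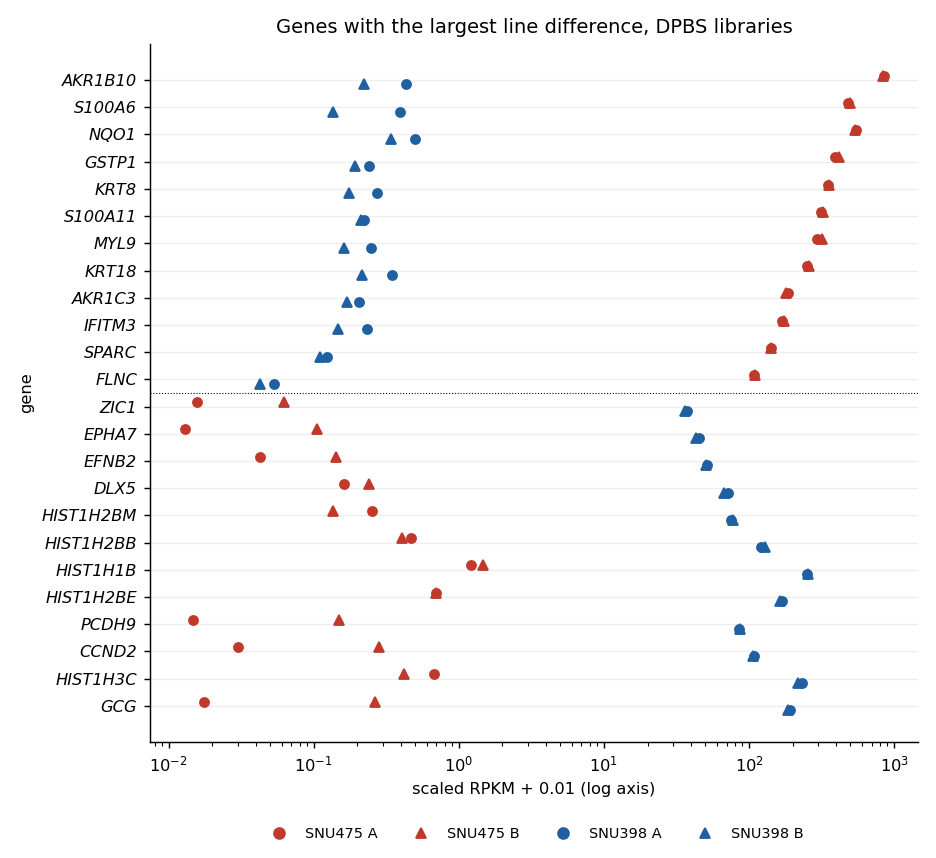
Scaled RPKM plus 0.01 (log axis) of the 12 protein-coding genes with the highest and the 12 with the lowest log2 difference, in the DPBS libraries of SNU475 (red) and SNU398 (blue), libraries A (circles) and B (triangles). By the rule that chose them, no SNU475 point overlaps an SNU398 point in any of the 24 genes. The values of the lower line lie mostly under 1 RPKM.

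GSTP1, a glutathione transferase whose promoter is a known target of DNA methylation in liver cancer, and GCG mark opposite ends of promoter composition. GSTP1 (chr11:67351066-67354131, hg19) had 393 and 414 RPKM in SNU475, against 0.232 and 0.182 RPKM in SNU398 (log2 difference 9.16 ± 0.27, adjusted p = 7.26e-14), beside 0.0777 and 0.0833 RPKM in HepG2. Their promoters are shown because one is dense in CG, the dinucleotide that DNA methyltransferases modify, and the other is nearly without it. The 300 bases from 250 before to 50 after the start hold 36 CG in GSTP1 (chr11:67583562-67583861, plus strand) and 2 in GCG (chr2:162152198-162152497, minus strand); sequences are from RefSeq, GRCh38.p14, with each CG in capitals.
GSTP1: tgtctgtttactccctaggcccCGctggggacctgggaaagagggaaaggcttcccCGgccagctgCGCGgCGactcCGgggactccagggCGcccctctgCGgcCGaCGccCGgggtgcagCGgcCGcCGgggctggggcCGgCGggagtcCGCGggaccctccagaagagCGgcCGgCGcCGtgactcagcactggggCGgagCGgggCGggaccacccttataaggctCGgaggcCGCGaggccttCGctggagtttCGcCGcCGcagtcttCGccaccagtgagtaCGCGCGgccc
GCG: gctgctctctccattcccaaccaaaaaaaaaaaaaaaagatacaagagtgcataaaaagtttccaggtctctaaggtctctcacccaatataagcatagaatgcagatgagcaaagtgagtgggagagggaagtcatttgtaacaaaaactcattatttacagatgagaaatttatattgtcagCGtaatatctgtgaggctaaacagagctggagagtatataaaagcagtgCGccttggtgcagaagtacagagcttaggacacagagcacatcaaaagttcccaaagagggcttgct
Over genes at 5 RPKM or more in one line and under 0.5 RPKM in the other, the median was 16 CG per promoter for the 235 matched promoters of 323 genes expressed in SNU475 alone and 22 CG for the 70 of 97 genes expressed in SNU398 alone. Genes at 5 RPKM or more in both lines had a median of 28 CG (3201 matched of 4030), genes under 0.5 RPKM in both had 11 (913 of 1411), and all 27305 promoters had 14. These counts describe letters only and hold no measure of methylation.

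Detoxifying genes were mostly higher in SNU475. NRF2 is known to drive many of them through antioxidant response elements in their promoters. Of 34 tested members, 30 were called higher and 2 lower in SNU475, 28 and 1 of them by at least 2-fold, with a median log2 difference of 3.10 (voom 4.84). AKR1C1, a steroid-reducing aldo-keto reductase that shares near-identical sequence with AKR1C2, had 62.5 and 59.9 RPKM in SNU475, against 0.0581 and 0.07 RPKM in SNU398 (log2 difference 6.77 ± 0.07, adjusted p = 3.31e-19). GCLM, the modifier subunit of glutathione synthesis, had 37.9 and 36.3 RPKM in SNU475, against 4.43 and 4.17 RPKM in SNU398 (log2 difference 2.97 ± 0.06, adjusted p = 2.29e-16). GCLC, its catalytic partner, had 25.8 and 25.5 RPKM in SNU475, against 3.55 and 3.38 RPKM in SNU398. TXNRD1, thioredoxin reductase, had 277 and 274 RPKM in SNU475, against 29.6 and 29.4 RPKM in SNU398 (log2 difference 3.20 ± 0.03, adjusted p = 7.99e-20). The drug exporter ABCC2 of the bile canaliculus had 29.9 and 30 RPKM in SNU475, against 0.175 and 0.13 RPKM in SNU398. ABCG2, another exporter, had 6.27 and 5.95 RPKM in SNU475, against 0.0295 and 0.0285 RPKM in SNU398. HMOX1, the haem-degrading oxygenase that NRF2 also drives, was the member lower by at least 2-fold, with 8.7 and 8.41 RPKM in SNU475, against 20.8 and 20.6 RPKM in SNU398 (log2 difference -1.23 ± 0.03, adjusted p = 1.15e-14). SLC7A11, the cystine importer, was also called lower, with 16.5 and 14.8 RPKM in SNU475, against 25.4 and 24.3 RPKM in SNU398 (log2 difference -0.65). The core of the antioxidant element, TGACNNNGC on either strand, stood in the promoters of 8 of 24 matched members (33.3%), against 13.6% of all promoters. The GCLM promoter (chr1:93909381-93909680, minus strand) holds it on the strand opposite to the printed one, in capitals.
GCLM: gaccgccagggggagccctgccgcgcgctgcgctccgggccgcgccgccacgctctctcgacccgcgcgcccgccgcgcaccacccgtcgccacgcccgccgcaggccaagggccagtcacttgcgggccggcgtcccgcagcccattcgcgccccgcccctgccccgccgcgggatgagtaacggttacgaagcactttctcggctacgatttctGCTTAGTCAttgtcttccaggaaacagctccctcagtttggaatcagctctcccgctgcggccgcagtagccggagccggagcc

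Epithelial structure genes were higher in SNU475, with exceptions. Of 46 tested members, 31 were called higher and 7 lower in SNU475, 23 and 5 of them by at least 2-fold, with a median log2 difference of 1.10 (voom 2.88). CDH1, the E-cadherin of epithelial junctions, had 6.86 and 6.8 RPKM in SNU475, against 0.119 and 0.102 RPKM in SNU398 (log2 difference 3.59 ± 0.04, adjusted p = 8.32e-19). DSG2, a desmosomal cadherin, had 51.5 and 50 RPKM in SNU475, against 1.2 and 1.2 RPKM in SNU398 (log2 difference 4.92 ± 0.05, adjusted p = 2.37e-19), and the claudin CLDN7 of tight junctions had 5.55 and 5.5 RPKM in SNU475, against 0 and 0.006 RPKM in SNU398. SNU475 held both cadherin classes at once, since CDH2, the N-cadherin, had 77 and 76.2 RPKM in SNU475, against 1.71 and 1.73 RPKM in SNU398 (log2 difference 5.12 ± 0.04, adjusted p = 5.7e-20). EPCAM, the epithelial adhesion molecule of liver progenitors, was lower, with 0.702 and 0.397 RPKM in SNU475, against 5.66 and 5.13 RPKM in SNU398 (log2 difference -2.50 ± 0.10, adjusted p = 1.47e-12), as were CGN, the tight-junction protein cingulin (0.333 and 0.314 RPKM in SNU475, against 2.41 and 2.29 RPKM in SNU398), and CDH3, the P-cadherin (0.104 and 0.124 RPKM in SNU475, against 1.45 and 1.31 RPKM in SNU398). Among 13 keratins tested, 12 were called higher, 8 by at least 2-fold, with a median of 1.32 (voom 7.51), and none was called lower. KRT19, a biliary keratin, had 26.4 and 28.2 RPKM in SNU475, against 0.0434 and 0.0069 RPKM in SNU398. KRT4, a keratin of stratified epithelium, had 4.28 and 4.31 RPKM in SNU475, against 0 and 0 RPKM in SNU398. Of the epithelial marker genes, 10 of 20 reached 1 RPKM in SNU475 and 1 in SNU398, with summed levels of 634 and 648 RPKM in SNU475, against 7.86 and 7.05 RPKM in SNU398.

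S100 genes and integrins followed the same direction. Of 13 tested genes of the S100 list, 11 were called higher and 1 lower, 8 and 0 by at least 2-fold, with a median of 3.54 (voom 5.64); the lower one, S100PBP, encodes a binding partner rather than an S100 protein. S100A11 had 311 and 325 RPKM in SNU475, against 0.212 and 0.202 RPKM in SNU398. S100A10, the partner of annexin A2, had 281 and 286 RPKM in SNU475, against 4.36 and 4.61 RPKM in SNU398. Of 17 integrin genes, 14 were called higher and 2 lower, 7 and 0 by at least 2-fold. ITGA3, a laminin receptor subunit, had 56.1 and 57.9 RPKM in SNU475, against 0.391 and 0.339 RPKM in SNU398 (log2 difference 6.05 ± 0.05, adjusted p = 3.68e-20). ITGA4 had 20 and 19.4 RPKM in SNU475, against 0.0997 and 0.0777 RPKM in SNU398 (log2 difference 5.10 ± 0.04, adjusted p = 4.27e-20). The common beta subunit ITGB1 had 149 and 151 RPKM in SNU475, against 42.8 and 42.4 RPKM in SNU398. CD44, the hyaluronan receptor, had 36.2 and 36.5 RPKM in SNU475, against 0.102 and 0.11 RPKM in SNU398.

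Most mesenchymal matrix and cytoskeleton genes were higher in SNU475, with a few lower. Of 45 tested members, 36 were called higher and 8 lower in SNU475, 33 and 6 of them by at least 2-fold, with a median log2 difference of 2.91 (voom 4.13). FN1, fibronectin, had 254 and 259.6 RPKM in SNU475, against 2.27 and 2.13 RPKM in SNU398 (log2 difference 6.57 ± 0.08, adjusted p = 1.32e-18). COL5A1, a fibrillar collagen chain, had 41.7 and 42.4 RPKM in SNU475, against 0.101 and 0.101 RPKM in SNU398 (log2 difference 6.15 ± 0.05, adjusted p = 3.14e-20). Type IV collagen of basement membranes followed, with COL4A1 at 51.6 and 51.2 RPKM in SNU475, against 2.3 and 2.24 RPKM in SNU398 and COL4A2 at 69.6 and 70.2 RPKM in SNU475, against 2.0 and 1.94 RPKM in SNU398. Of 29 collagen genes, 16 stood 2-fold or more higher and 2 lower (voom 23 and 4). The lower ones were COL11A1, with 0.0956 and 0.187 RPKM in SNU475, against 29.6 and 29.6 RPKM in SNU398, and COL21A1, with 0.591 and 0.608 RPKM in SNU475, against 10.6 and 10.5 RPKM in SNU398. SNU398 in turn was higher in the proteoglycans DCN (decorin; 0.132 and 0.161 RPKM in SNU475, against 6.67 and 6.38 RPKM in SNU398) and LUM (lumican; 7.99 and 8.38 RPKM in SNU475, against 47.2 and 44.5 RPKM in SNU398), and in FAP, a fibroblast surface protease (0.512 and 0.56 RPKM in SNU475, against 5.13 and 4.88 RPKM in SNU398). VIM, the vimentin filament, was abundant in both lines and lower in SNU475, with 173 and 179 RPKM in SNU475, against 329 and 325 RPKM in SNU398 (log2 difference -0.89 ± 0.19, adjusted p = 0.00059).

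Smooth muscle genes were also mostly higher. Of 25 contractile genes, 18 were called higher and 5 lower, 15 and 3 by at least 2-fold, with a median of 1.94 (voom 3.10). ACTA2, smooth muscle actin, had 47.1 and 49.7 RPKM in SNU475, against 2.83 and 2.68 RPKM in SNU398 (log2 difference 3.91 ± 0.05, adjusted p = 2.02e-18). CNN1, calponin, had 9.55 and 9.53 RPKM in SNU475, against 0.039 and 0.0415 RPKM in SNU398. TNNT1, the slow skeletal troponin T, was lower, with 0.632 and 0.687 RPKM in SNU475, against 16 and 17.4 RPKM in SNU398 (log2 difference -3.89 ± 0.08, adjusted p = 3.86e-16), and TPM2, a tropomyosin, with 4.43 and 4.43 RPKM in SNU475, against 14.9 and 14.6 RPKM in SNU398. Target genes of YAP, the growth regulator of the Hippo pathway, were likewise mostly higher. Of 24 tested members, 21 were called higher and 3 lower in SNU475, 19 and 2 of them by at least 2-fold, with a median log2 difference of 2.32. CTGF had 174 and 169 RPKM in SNU475, against 5.71 and 5.8 RPKM in SNU398. CYR61 had 189 and 191 RPKM in SNU475, against 7.74 and 8.1 RPKM in SNU398, both secreted matricellular proteins, and ANKRD1, a nuclear ankyrin protein, had 9.69 and 9.66 RPKM in SNU475, against 0.138 and 0.139 RPKM in SNU398. The exceptions lower by at least 2-fold were FJX1, with 0.497 and 0.506 RPKM in SNU475, against 9.56 and 8.92 RPKM in SNU398, and FOXF2, with 0.817 and 0.691 RPKM in SNU475, against 4.36 and 4.16 RPKM in SNU398.

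Transcription factors linked to epithelial to mesenchymal transition were divided between the lines. Of 14 tested, 4 were called higher and 10 lower in SNU475, 4 and 8 by at least 2-fold, with a median of -1.12. SNU475 had more of the zinc-finger factors SNAI1 (18.2 and 18.7 RPKM in SNU475, against 2.23 and 2.37 RPKM in SNU398; log2 difference 2.76 ± 0.05, adjusted p = 1.62e-16), SNAI2 (7.08 and 6.87 RPKM in SNU475, against 0.774 and 0.744 RPKM in SNU398) and ZEB1 (8.55 and 8.67 RPKM in SNU475, against 0.95 and 0.979 RPKM in SNU398; log2 difference 2.64 ± 0.04, adjusted p = 2.26e-17). SNU398 had more TWIST1, a bHLH factor, with 10 and 9.18 RPKM in SNU475, against 89.6 and 82 RPKM in SNU398 (log2 difference -3.09 ± 0.12, adjusted p = 1.46e-12). The homeobox factors PRRX1 and MEOX2 stood at 0.0134 and 0.0202 RPKM in SNU475, against 5.91 and 6.09 RPKM in SNU398 and at 0 and 0.0826 RPKM in SNU475, against 17.4 and 16.6 RPKM in SNU398. No SNU475 library overlapped an SNU398 library for any of these factors.

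**Figure D3:**
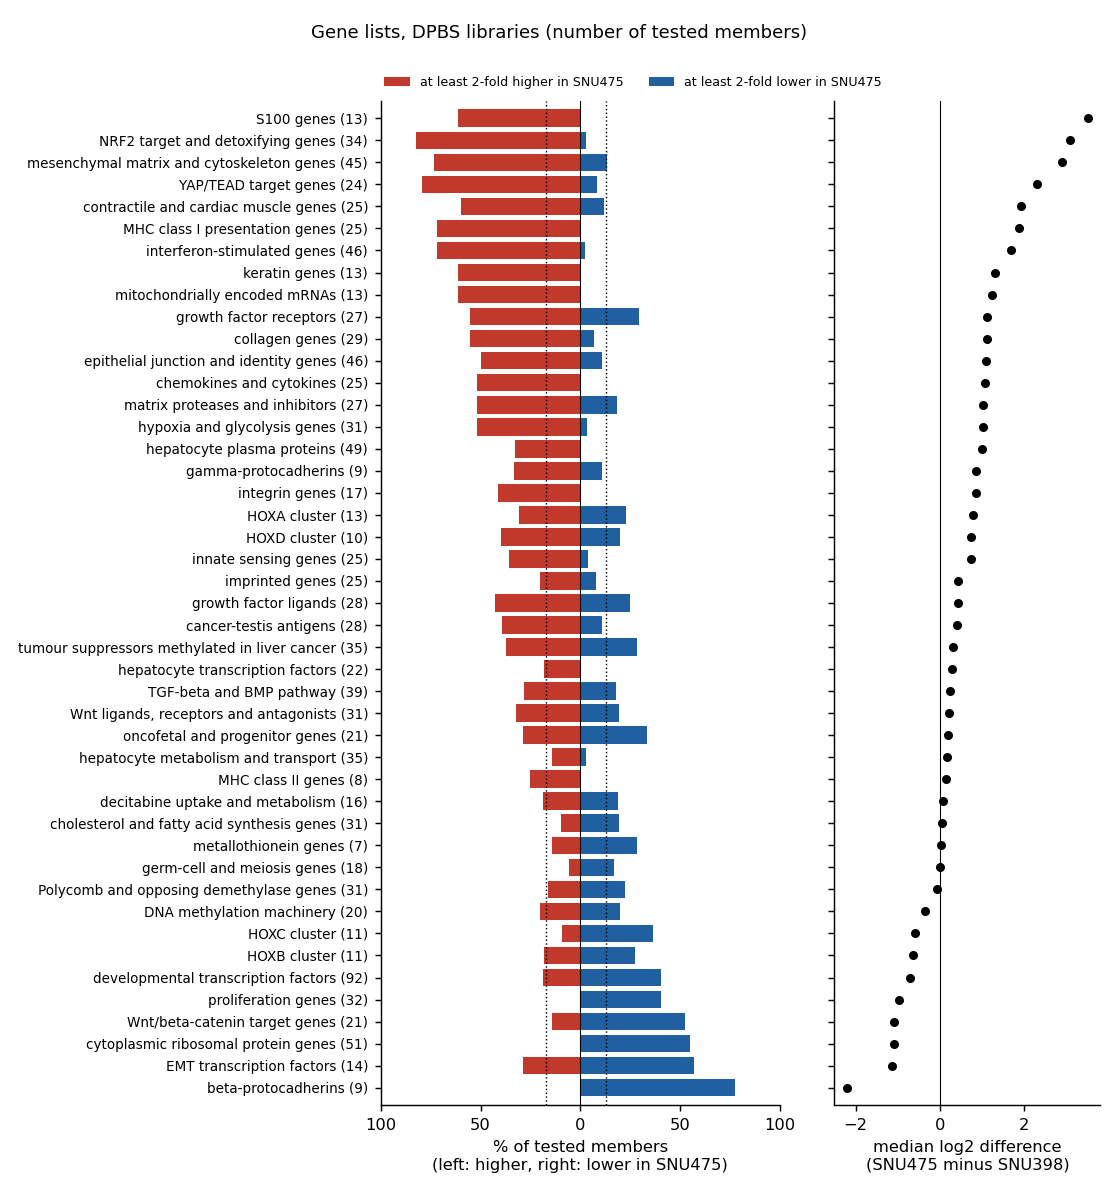
Of the 47 gene lists, 45 are shown, ordered by median log2 difference (right, points). Bars give the percentage of tested members called and at least 2-fold higher (red, to the left) or lower (blue, to the right) in SNU475 than in SNU398, the number tested stands in parentheses, and the dotted lines mark the shares over all genes, 17.2% and 13.1%. S100, detoxifying, mesenchymal and YAP genes stand at the top, and ribosomal protein, EMT factor and beta-protocadherin genes at the bottom.

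Target genes of Wnt/beta-catenin signalling were mostly higher in SNU398. Of 21 tested, 4 were called higher and 15 lower in SNU475, 3 and 11 by at least 2-fold, with a median of -1.09 (voom -1.93). AXIN2, a feedback inhibitor and direct target of the pathway, had 1.76 and 1.74 RPKM in SNU475, against 91.7 and 90.5 RPKM in SNU398 (log2 difference -5.35 ± 0.08, adjusted p = 2.09e-17). LEF1, a nuclear partner of beta-catenin, had 0.0038 and 0.0356 RPKM in SNU475, against 16.8 and 16.2 RPKM in SNU398 (log2 difference -5.03 ± 0.06, adjusted p = 1.53e-18). TNFRSF19 had 2.1 and 1.83 RPKM in SNU475, against 17.9 and 18.4 RPKM in SNU398. MYC had 21.2 and 21.7 RPKM in SNU475, against 51.7 and 50.4 RPKM in SNU398. CCND1, cyclin D1, had 38.9 and 37.7 RPKM in SNU475, against 38.6 and 37.5 RPKM in SNU398 and was not called. RNF43, a ubiquitin ligase that removes Wnt receptors, ran the other way, with 1.54 and 1.38 RPKM in SNU475, against 0.0728 and 0.0587 RPKM in SNU398. The transcript of beta-catenin itself, CTNNB1, differed little, with 40.6 and 39.8 RPKM in SNU475, against 37.4 and 38.1 RPKM in SNU398 (log2 difference 0.09 ± 0.02, adjusted p = 0.000533), and its sign turned without scaling between libraries (-0.055). Among ligands and antagonists, WNT5A, a ligand of the non-canonical branch, had 26.1 and 25.1 RPKM in SNU475, against 1.94 and 1.85 RPKM in SNU398. RSPO3, a Wnt enhancer, had 14 and 13.7 RPKM in SNU475, against 0.0494 and 0.0337 RPKM in SNU398, whereas the secreted antagonists DKK2 and WIF1 stood at 0.0038 and 0.048 RPKM in SNU475, against 31.6 and 29.3 RPKM in SNU398 and 0 and 0.0317 RPKM in SNU475, against 9.18 and 8.9 RPKM in SNU398. DKK3 had 13.3 and 13.6 RPKM in SNU475, against 0.321 and 0.29 RPKM in SNU398.

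Growth factor receptors and ligands differed in both directions. Of 27 receptors, 15 were at least 2-fold higher and 8 lower in SNU475. Of 28 ligands, 12 were at least 2-fold higher and 7 lower. MET, the receptor of hepatocyte growth factor, had 29.2 and 28.9 RPKM in SNU475, against 0.303 and 0.322 RPKM in SNU398 (log2 difference 5.18 ± 0.05, adjusted p = 1.12e-19), and its ligand HGF had 0.087 and 0.0874 RPKM in SNU475, against 3.8 and 3.59 RPKM in SNU398 (log2 difference -2.83 ± 0.04, adjusted p = 3.85e-18), so receptor and ligand were high in opposite lines. EGFR had 9.32 and 9.48 RPKM in SNU475, against 0.563 and 0.639 RPKM in SNU398. IL6R, the interleukin 6 receptor, had 6.84 and 6.47 RPKM in SNU475, against 0.163 and 0.156 RPKM in SNU398. FGFR4, the liver receptor of FGF19, had 0.953 and 0.641 RPKM in SNU475, against 4.33 and 3.97 RPKM in SNU398. FGFR3 had 0.772 and 0.605 RPKM in SNU475, against 4.12 and 3.88 RPKM in SNU398. CSF1, the macrophage growth factor, had 22.4 and 22.6 RPKM in SNU475, against 0.215 and 0.223 RPKM in SNU398 (log2 difference 5.00 ± 0.04, adjusted p = 7.99e-20). LIF, an interleukin 6 family cytokine, had 8.0 and 8.24 RPKM in SNU475, against 0.34 and 0.316 RPKM in SNU398 (log2 difference 3.38 ± 0.05, adjusted p = 1.39e-17). MDK, the secreted factor midkine, had 0.981 and 0.931 RPKM in SNU475, against 60.4 and 59.7 RPKM in SNU398 (log2 difference -5.38 ± 0.03, adjusted p = 5.03e-21). VEGFC, a lymphatic growth factor, had 0.0669 and 0.117 RPKM in SNU475, against 24.4 and 23.1 RPKM in SNU398 (log2 difference -5.36 ± 0.06, adjusted p = 6.93e-19). TGFBR2, the ligand-binding TGF-beta receptor, had 20.7 and 19.6 RPKM in SNU475, against 0.141 and 0.107 RPKM in SNU398 (log2 difference 5.05 ± 0.09, adjusted p = 6.52e-17). GREM1, a BMP antagonist, had 68.2 and 68.2 RPKM in SNU475, against 0.176 and 0.11 RPKM in SNU398. BMP7 had 0 and 0.0144 RPKM in SNU475, against 7.52 and 7.62 RPKM in SNU398. Of 39 TGF-beta and BMP genes, 11 stood 2-fold or more higher and 7 lower.

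Developmental transcription factors were more often higher in SNU398. Of 92 tested, 30 were called higher and 59 lower in SNU475, 17 and 37 by at least 2-fold, with a median of -0.71 (voom -1.20). DLX5, a homeobox factor of limb and jaw, had 0.152 and 0.229 RPKM in SNU475, against 72.1 and 67.2 RPKM in SNU398 (log2 difference -6.67 ± 0.13, adjusted p = 4.55e-16). ZIC1, a neural zinc-finger factor, had 0.0057 and 0.0528 RPKM in SNU475, against 37.5 and 36.1 RPKM in SNU398 (log2 difference -6.14 ± 0.06, adjusted p = 3.69e-19). GLI1, the effector and target of Hedgehog signalling, had 0.0172 and 0.0135 RPKM in SNU475, against 8.29 and 7.91 RPKM in SNU398 (log2 difference -4.06 ± 0.05, adjusted p = 4.76e-18). SNU475 was higher in SOX9, a factor of bile ducts (4.7 and 4.44 RPKM in SNU475, against 0.102 and 0.0734 RPKM in SNU398; log2 difference 3.11 ± 0.09, adjusted p = 7.53e-14). HOX clusters held differences in both directions. HOXD13 had 0.242 and 0.253 RPKM in SNU475, against 19.9 and 19.6 RPKM in SNU398 (log2 difference -4.76 ± 0.03, adjusted p = 1.5e-20), while HOXD10 (6.32 and 6.39 RPKM in SNU475, against 2.5 and 2.38 RPKM in SNU398) and HOXD9 (2.02 and 1.67 RPKM in SNU475, against 0.505 and 0.404 RPKM in SNU398) were higher in SNU475. In the HOXC cluster 9 of 11 tested members were called lower and 1 higher. HOXC10 was lower, with 5.11 and 5.58 RPKM in SNU475, against 24.9 and 25.4 RPKM in SNU398, and the non-coding HOTAIR was higher, with 1.86 and 2.03 RPKM in SNU475, against 0.441 and 0.382 RPKM in SNU398. All 9 tested beta-protocadherins, adhesion genes of one cluster on chromosome 5, were called lower, 7 by at least 2-fold, with a median of -2.22 (voom -7.03), PCDHB5 with 0.0182 and 0.0192 RPKM in SNU475, against 10.7 and 10.5 RPKM in SNU398. Of 9 gamma-protocadherins, 7 were called higher and 2 lower, 3 and 1 by at least 2-fold (voom 7 and 1).

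Interferon-stimulated genes were mostly higher in SNU475. Of 46 tested members, 40 were called higher and 3 lower in SNU475, 33 and 1 of them by at least 2-fold, with a median log2 difference of 1.69 (voom 4.50). IFITM3, a membrane protein that blocks virus entry, had 168 and 175 RPKM in SNU475, against 0.224 and 0.137 RPKM in SNU398 (log2 difference 7.99 ± 0.09, adjusted p = 1.36e-18). IFI16, a DNA sensor, had 21.1 and 21.5 RPKM in SNU475, against 0.317 and 0.306 RPKM in SNU398 (log2 difference 4.75 ± 0.06, adjusted p = 4.99e-18). BST2, which tethers virus particles, had 13.6 and 13.1 RPKM in SNU475, against 0.0772 and 0.0959 RPKM in SNU398. IFIH1, the sensor of long double-stranded RNA, was the member lower by at least 2-fold, with 2.54 and 2.74 RPKM in SNU475, against 29.5 and 29.5 RPKM in SNU398 (log2 difference -3.26 ± 0.04, adjusted p = 1.19e-18). TMEM173, the adaptor STING of cytosolic DNA sensing, had 7.47 and 8.11 RPKM in SNU475, against 0.0035 and 0.0121 RPKM in SNU398 (log2 difference 4.03 ± 0.07, adjusted p = 1.1e-16). ISG15, the interferon-induced ubiquitin-like modifier, had 7.84 and 7.2 RPKM in SNU475, against 8.18 and 7.96 RPKM in SNU398 and was not called (log2 difference -0.10 ± 0.05, adjusted p = 0.0919), although it was called lower without SNU475 library A (-0.16), without scaling (-0.24) and under quantile normalization (-0.26). IFITM1 had 1.69 and 1.87 RPKM in SNU475, against 0.0269 and 0.0285 RPKM in SNU398 (log2 difference 2.11). The core of the interferon-stimulated response element, GAAA, any 2 bases and GAAA on either strand, stood in 25 of 37 matched promoters of the list (67.6%) and in 10 of 20 of the class I presentation list (50%), against 3.65% of all 27305 promoters. It is in capitals in the promoters of ISG15 (chr1:1013247-1013546, plus strand, where 2 overlapping matches form the run) and IFITM1 (chr11:313790-314089, plus strand, 2 matches), shown because both hold it while IFITM1 was called and ISG15 was not. These promoters are from RefSeq, GRCh38.p14.
ISG15: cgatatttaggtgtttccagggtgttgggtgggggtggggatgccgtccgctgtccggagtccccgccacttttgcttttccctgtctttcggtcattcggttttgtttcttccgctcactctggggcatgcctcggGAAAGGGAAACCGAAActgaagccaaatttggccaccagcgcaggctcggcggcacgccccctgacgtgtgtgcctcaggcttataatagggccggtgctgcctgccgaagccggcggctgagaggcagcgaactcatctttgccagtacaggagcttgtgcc
IFITM1: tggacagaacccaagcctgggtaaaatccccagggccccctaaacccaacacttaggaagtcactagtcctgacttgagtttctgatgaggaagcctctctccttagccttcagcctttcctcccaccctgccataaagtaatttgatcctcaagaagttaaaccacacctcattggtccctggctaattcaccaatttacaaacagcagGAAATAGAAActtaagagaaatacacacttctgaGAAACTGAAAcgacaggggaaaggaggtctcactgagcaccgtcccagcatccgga

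Antigen presentation and inflammatory genes took the same direction. Of 25 class I presentation genes, 23 were called higher and 2 lower, 18 and 0 by at least 2-fold, with a median of 1.89 (voom 3.27). The classical genes HLA-B and HLA-C had log2 differences of 3.24 and 2.72, with values that are uncertain because alleles and paralogs share sequence. B2M, the invariant chain, had 329 and 324 RPKM in SNU475, against 37.9 and 36.9 RPKM in SNU398 (log2 difference 3.11). PSMB8, an immunoproteasome subunit, had 47.3 and 49.8 RPKM in SNU475, against 0.358 and 0.411 RPKM in SNU398 (log2 difference 5.79 ± 0.06, adjusted p = 6.25e-19). Of 25 chemokines and cytokines, 22 were called higher, 13 by at least 2-fold (voom 21), and none lower; IL8 had 10.3 and 9.16 RPKM in SNU475, against 0.0251 and 0.0268 RPKM in SNU398, IL18 had 7.16 and 7.21 RPKM in SNU475, against 0.0659 and 0.076 RPKM in SNU398. IL6 had 2.24 and 1.98 RPKM in SNU475, against 0.0208 and 0 RPKM in SNU398. Of 10 leukocyte markers 1 reached 1 RPKM in SNU475 and none in SNU398, with summed levels of 14.2 and 13.4 RPKM in SNU475, against 0.756 and 0.716 RPKM in SNU398. The same list summed to 438.5 and 452 RPKM in HepG2. MS4A1 and NKG7 were at 0 in both SNU475 libraries, and CD3E and MS4A1 in both SNU398 libraries. Both lines are cultured tumour cells, so these marker levels are not read as leukocytes in the libraries, which was not tested.

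Genes of growth and protein synthesis were lower in SNU475, the line harvested later. Of 32 proliferation genes, 1 was called higher and 31 lower, 0 and 13 by at least 2-fold, with a median of -0.97. BIRC5, survivin, had 7.9 and 8.43 RPKM in SNU475, against 44.2 and 43.5 RPKM in SNU398 (log2 difference -2.35 ± 0.03, adjusted p = 1.99e-18), KIF11, a spindle motor, had 10.7 and 10.5 RPKM in SNU475, against 46.6 and 45.2 RPKM in SNU398 (log2 difference -2.06 ± 0.03, adjusted p = 4.2e-17). MKI67 had 13.7 and 14.4 RPKM in SNU475, against 28 and 28.8 RPKM in SNU398 (log2 difference -0.99 ± 0.03, adjusted p = 1.17e-13). MCM5, a subunit of the replicative helicase, had 4.15 and 4.15 RPKM in SNU475, against 15.3 and 14.7 RPKM in SNU398. TOP2A, the topoisomerase of mitosis, was nearly level, with 42.8 and 42.6 RPKM in SNU475, against 49.6 and 49.8 RPKM in SNU398 (log2 difference -0.22). Of 51 cytoplasmic ribosomal protein genes, 50 were called lower and none higher, 28 by at least 2-fold, with a median of -1.09; RPL3 had 62.4 and 61.6 RPKM in SNU475, against 154 and 156 RPKM in SNU398. RPS2 had 59 and 58 RPKM in SNU475, against 184 and 188 RPKM in SNU398, although pseudogene copies share reads with these genes. Mitochondrially encoded mRNAs ran the other way, 12 of 13 called higher and none lower, 8 by at least 2-fold (4 under quantile normalization, with 1 lower). MT-CO1, a subunit of cytochrome oxidase, had 1926 and 1926 RPKM in SNU475, against 513 and 516 RPKM in SNU398 (log2 difference 1.90 ± 0.03, adjusted p = 2.73e-17). Under quantile normalization the median of these 13 fell to 0.31 and MT-ND1 changed sign (-0.66).

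Cell-cycle inhibitors, cyclins and their kinases differed in both directions. Of 24 tested, 7 were called higher and 14 lower in SNU475, 5 and 5 by at least 2-fold, with a median of -0.38. CDKN1A, the cyclin-dependent kinase inhibitor p21, had 19.3 and 18.9 RPKM in SNU475, against 1.47 and 1.41 RPKM in SNU398 (log2 difference 3.34 ± 0.05, adjusted p = 4.6e-17). CDKN2A, the locus of p16 and ARF, was expressed in both lines, with 5.9 and 5.87 RPKM in SNU475, against 7.42 and 7.73 RPKM in SNU398 (log2 difference -0.34 ± 0.04, adjusted p = 2.82e-06). Of the D-type cyclins, CCND2 was high in SNU398 as given above, CCND3 had 22.7 and 22.3 RPKM in SNU475, against 2.67 and 2.54 RPKM in SNU398 (log2 difference 2.89 ± 0.05, adjusted p = 1.04e-16), and CCND1 was not called.

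The genes of the pathways that the drugs act on differed in both directions. Of 31 Polycomb and opposing demethylase genes, 10 were called higher and 14 lower in SNU475, 5 (3 under quantile normalization) and 7 by at least 2-fold. EZH2, the methyltransferase inhibited by GSK-126, had 5.61 and 5.54 RPKM in SNU475, against 14.7 and 15.3 RPKM in SNU398 (log2 difference -1.35 ± 0.03, adjusted p = 8.18e-15). Its partners in Polycomb complex PRC2 were nearly level, EED with 2.69 and 2.76 RPKM in SNU475, against 2.95 and 3.16 RPKM in SNU398 and SUZ12 with 12.7 and 12.3 RPKM in SNU475, against 13 and 12.3 RPKM in SNU398; the small difference of EED (adjusted p = 0.0496) was lost without SNU475 library A, SNU475 library B or SNU398 library B, at log2 differences of -0.12, -0.16 and -0.10. EZH1, the second methyltransferase of the complex, was higher, with 4.11 and 4.3 RPKM in SNU475, against 1.05 and 1.06 RPKM in SNU398 (log2 difference 1.59 ± 0.05, adjusted p = 8.55e-14), and CBX2, a reader subunit of PRC1, was lower, with 1.22 and 1.2 RPKM in SNU475, against 13.2 and 12.9 RPKM in SNU398 (log2 difference -2.99 ± 0.04, adjusted p = 1.33e-17). Of 20 DNA methylation genes, 9 were called higher and 11 lower, 4 in each direction by at least 2-fold, with a median of -0.36. DNMT1, the maintenance methyltransferase, had 8.91 and 9.11 RPKM in SNU475, against 16.5 and 16.4 RPKM in SNU398 (log2 difference -0.84 ± 0.03, adjusted p = 1.68e-13), and its recruiting factor UHRF1 had 2.94 and 3.0 RPKM in SNU475, against 20.3 and 19.6 RPKM in SNU398 (log2 difference -2.56 ± 0.03, adjusted p = 1.08e-18). The de novo enzymes were also lower, DNMT3A with 2.59 and 2.47 RPKM in SNU475, against 6.45 and 6.41 RPKM in SNU398 and DNMT3B with 2.99 and 2.84 RPKM in SNU475, against 6.35 and 6.09 RPKM in SNU398. Among the higher members were GADD45A, a DNA damage-induced protein (10.2 and 10.9 RPKM in SNU475, against 3.05 and 2.84 RPKM in SNU398; log2 difference 1.68 ± 0.04, adjusted p = 6.89e-15), and MBD2, a reader of methylated DNA (13.7 and 14.4 RPKM in SNU475, against 4.4 and 4.52 RPKM in SNU398; log2 difference 1.55 ± 0.04, adjusted p = 9.95e-15).

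Genes that handle decitabine differed in a few members, 3 of 16 at least 2-fold in each direction, beside 17.2% higher and 13.1% lower of all genes. CDA, cytidine deaminase, which inactivates decitabine, had 9.13 and 9.25 RPKM in SNU475, against 0 and 0.0155 RPKM in SNU398 (log2 difference 4.25 ± 0.06, adjusted p = 1.79e-17), beside 1.8 and 1.64 RPKM in HepG2. DCK, the kinase that activates it, had 5.56 and 5.46 RPKM in SNU475, against 8.28 and 7.64 RPKM in SNU398 (log2 difference -0.49 ± 0.10, adjusted p = 0.000346). The nucleoside transporter SLC29A1 had 15.4 and 15.9 RPKM in SNU475, against 13.1 and 12.7 RPKM in SNU398. DUT and DCTPP1, which break down nucleotide triphosphates, had 6.29 and 6.54 RPKM in SNU475, against 17.5 and 17.6 RPKM in SNU398 and 5.42 and 5.19 RPKM in SNU475, against 18.6 and 18.8 RPKM in SNU398. SAMHD1, another triphosphatase, had 9.1 and 9.2 RPKM in SNU475, against 2.42 and 2.48 RPKM in SNU398. Of the 16 members CDA had the largest log2 difference, and it was at or near 0 in SNU398.

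Genes known to be silenced by methylation in liver cancer were divided between the lines, 13 of 35 at least 2-fold higher and 10 lower in SNU475. Beside GSTP1, SNU475 was higher in IGFBP7, a secreted growth inhibitor (28.4 and 28 RPKM in SNU475, against 0.052 and 0.118 RPKM in SNU398; log2 difference 5.62 ± 0.09, adjusted p = 2.39e-17), and CASP8, the initiator caspase (5.41 and 5.43 RPKM in SNU475, against 0.0165 and 0.025 RPKM in SNU398). SNU398 was higher in SFRP1, a Wnt antagonist (0.254 and 0.262 RPKM in SNU475, against 3.32 and 3.37 RPKM in SNU398), and TIMP3, a protease inhibitor (0.431 and 0.172 RPKM in SNU475, against 5.52 and 5.41 RPKM in SNU398; log2 difference -2.92 ± 0.10, adjusted p = 5.6e-13). RASSF1 had 2.0 and 1.94 RPKM in SNU475, against 2.8 and 2.63 RPKM in SNU398, with a small difference (log2 difference -0.38). Methylation itself was not measured in these libraries.

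Hepatocyte identity was weak in both lines, and the summed levels differed between SNU475 libraries A and B. Of 28 hepatocyte markers, 15 reached 1 RPKM in SNU475 library A and 6 in library B, against 1 in SNU398 library A and 0 in library B, beside 26 in each HepG2 library. The summed level was 134 RPKM in SNU475 library A and 53.4 RPKM in library B, against 7.72 and 0.991 RPKM in SNU398, beside 16410 and 16390 RPKM in HepG2. Of 49 plasma protein genes, 22 were called higher and none lower, 16 by at least 2-fold, with a median of 1.01 (voom 3.22); without SNU475 library A the median was 0.13 and without library B 1.63, with 13 and 28 genes at least 2-fold higher. Genes at like levels in both SNU475 libraries included AMBP, the precursor of alpha-1-microglobulin, with 27 and 23.5 RPKM in SNU475, against 0.155 and 0.0371 RPKM in SNU398 (log2 difference 5.44 ± 0.51, adjusted p = 9.61e-08). FGB, a fibrinogen chain, had 13.5 and 13.2 RPKM in SNU475, against 0.122 and 0.0112 RPKM in SNU398 (log2 difference 4.62 ± 0.27, adjusted p = 2.48e-10). FGA, another, had 8.33 and 5.63 RPKM in SNU475, against 0.178 and 0.0078 RPKM in SNU398. C4A, a complement component with a near-identical copy, had 8.46 and 8.45 RPKM in SNU475, against 0.0277 and 0.0147 RPKM in SNU398, C3 had 9.32 and 7.0 RPKM in SNU475, against 0.233 and 0.0311 RPKM in SNU398. By contrast TF, transferrin, had 3.02 and 0.163 RPKM in SNU475, against 0.25 and 0.0104 RPKM in SNU398. SERPINA1, antitrypsin, had 8.11 and 0.481 RPKM in SNU475, against 0.724 and 0.0527 RPKM in SNU398, levels that rest on library A, and neither was called.

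Of 22 transcription factors of the hepatocyte, 11 were called higher and 4 lower, 4 and 0 by at least 2-fold. Their median was 0.29 (voom 12 and 3 by at least 2-fold, with a median of 1.78). GATA6 had 2.68 and 2.63 RPKM in SNU475, against 0.109 and 0.136 RPKM in SNU398 (log2 difference 2.34 ± 0.07, adjusted p = 3.31e-14). HNF4A, the central hepatocyte factor, had 0.432 and 0.0509 RPKM in SNU475, against 0.0546 and 0 RPKM in SNU398, beside 74.7 and 72.9 RPKM in HepG2, and among the alternatives run was called only without SNU475 library B (log2 difference 0.82). Of 35 metabolic and transport genes of the hepatocyte, 5 stood 2-fold or more higher and 1 lower, with a median of 0.17 (voom 16 and 3, with a median of 2.68). CYP27A1, a bile acid enzyme, had 11.8 and 11 RPKM in SNU475, against 0.308 and 0.257 RPKM in SNU398 (log2 difference 3.93 ± 0.08, adjusted p = 4.22e-16), ASS1 of the urea cycle had 11.3 and 11.1 RPKM in SNU475, against 1.71 and 1.54 RPKM in SNU398. TDO2, tryptophan dioxygenase, had 0.134 and 0.201 RPKM in SNU475, against 4.73 and 4.49 RPKM in SNU398. Of the fetal and progenitor genes, 6 of 21 were at least 2-fold higher and 7 lower. GPC3, the glypican used as a marker of liver cancer, had 0.24 and 0.0346 RPKM in SNU475, against 16.7 and 17.1 RPKM in SNU398 (log2 difference -4.79 ± 0.09, adjusted p = 3.86e-16), SALL4 had 0.173 and 0.162 RPKM in SNU475, against 4.44 and 4.45 RPKM in SNU398. PROM1, the stem cell antigen CD133, had 4.47 and 4.27 RPKM in SNU475, against 0.0061 and 0.0017 RPKM in SNU398 (log2 difference 3.27 ± 0.04, adjusted p = 6.64e-18). AFP, alpha-fetoprotein, had 11.5 and 0.962 RPKM in SNU475, against 0.886 and 0.0613 RPKM in SNU398, beside 2531 and 2546 RPKM in HepG2, and among the alternatives run was called only without SNU475 library B (3.77).

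Cancer-testis antigens, germline proteins re-expressed in tumours, were more often higher in SNU475. Of 28 tested, 11 (voom 19) were at least 2-fold higher and 3 lower in SNU475. MAGEA3, MAGEA6 and MAGEA12, near-identical genes on the X chromosome whose values are uncertain one by one, had log2 differences of 5.16, 5.22 and 5.33, MAGEA3 with 17.9 and 17.3 RPKM in SNU475, against 0.0061 and 0.0069 RPKM in SNU398. MAGEA10 had 15.4 and 14.4 RPKM in SNU475, against 0.0095 and 0.0104 RPKM in SNU398 (log2 difference 4.92 ± 0.07, adjusted p = 1.05e-17). PRAME ran the other way, with 6.54 and 6.83 RPKM in SNU475, against 30.9 and 30.9 RPKM in SNU398 (log2 difference -2.13 ± 0.04, adjusted p = 2.77e-16), as did GAGE1, with 0.265 and 0.259 RPKM in SNU475, against 6.83 and 6.75 RPKM in SNU398. Imprinted genes included PEG3, with 0.356 and 0.0288 RPKM in SNU475, against 4.72 and 4.8 RPKM in SNU398, and IGF2R, the receptor that clears insulin-like growth factor 2, with 42.3 and 42.6 RPKM in SNU475, against 9.76 and 9.96 RPKM in SNU398. H19, the fetal non-coding RNA, was not called, with 0.815 and 1.05 RPKM in SNU475, against 0.97 and 0.571 RPKM in SNU398.

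Of 31 hypoxia and glycolysis genes, 22 were called higher and 6 lower, 16 and 1 by at least 2-fold, with a median of 1.02. CA9, the carbonic anhydrase induced by hypoxia, had 6.17 and 6.49 RPKM in SNU475, against 0.0087 and 0 RPKM in SNU398 (log2 difference 3.76 ± 0.05, adjusted p = 3.27e-18). SLC16A3, the lactate exporter, had 7.68 and 7.77 RPKM in SNU475, against 0.0156 and 0.0155 RPKM in SNU398 (log2 difference 4.0 ± 0.07, adjusted p = 1.92e-16). Glucose transporters differed by gene, SLC2A1 with 10.2 and 10.5 RPKM in SNU475, against 3.3 and 3.29 RPKM in SNU398 and SLC2A3 with 0.776 and 0.61 RPKM in SNU475, against 14.1 and 14 RPKM in SNU398. Of 31 cholesterol and fatty acid genes, 13 were called higher and 13 lower, 3 and 6 by at least 2-fold (3 and 8 without scaling). FASN, fatty acid synthase, had 32.5 and 33.9 RPKM in SNU475, against 79.1 and 74.2 RPKM in SNU398.

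Long non-coding genes included some of the widest gaps. AC064834.1, a lincRNA at chr2:196313256-196343649 (hg19), had 0 and 0.382 RPKM in SNU475, against 225 and 242 RPKM in SNU398 (log2 difference -8.46 ± 0.35, adjusted p = 4.1e-12). DNM3OS, the antisense transcript that hosts miR-199a and miR-214, had 0 and 0.166 RPKM in SNU475, against 27.8 and 27.4 RPKM in SNU398 (log2 difference -5.61 ± 0.12, adjusted p = 7.83e-16). On the SNU475 side, RP11-818F20.5 had 8.16 and 9.75 RPKM in SNU475, against 0.0208 and 0 RPKM in SNU398. RP5-977B1.11 had 12 and 11.5 RPKM in SNU475, against 0 and 0 RPKM in SNU398. MMP24-AS1, with 15 and 15 RPKM in SNU475, against 0.376 and 0.41 RPKM in SNU398, overlaps MMP24 (8.04 and 8.02 RPKM in SNU475, against 0.0911 and 0.0967 RPKM in SNU398); the strand setting of the counting is not given in the sources used here, so such pairs cannot be told apart. Endothelial markers were under 1 RPKM in both lines and PECAM1 was at 0 in all 4 libraries. Muscle and neural marker sets summed to 5.86 and 10.7 RPKM in SNU475 library A and 5.78 and 10.9 RPKM in library B, against 0.481 and 3.65 RPKM in SNU398 library A and 0.392 and 3.59 RPKM in library B. Of 10 muscle markers, 2 reached 1 RPKM in SNU475 and 0 in SNU398, and of 10 neural markers 3 and 1. TUBB3 was the neural marker listed at 0 in both lines.

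Repeats were compared as subfamilies, by summing the RPM, reads scaled to library size without gene length, of all annotated copies. Of 843 subfamilies tested, 572 (67.9%) were called, 340 (40.3%) higher and 232 (27.5%) lower, 57 (6.76%) at least 2-fold higher and 35 (4.15%) at least 2-fold lower in SNU475, around a median of 0.09. Unlike the gene values, these RPM were not scaled between libraries. With the scaling of the genes, 599 subfamilies were called, 68 at least 2-fold higher and 25 at least 2-fold lower. With only loci outside annotated genes, 380 of 585 subfamilies were called, 45 (7.69%) at least 2-fold higher and 35 (5.98%) lower. The kept repeats took 3.53% and 3.40% of reads in SNU475 and 3.14% and 3.14% in SNU398. In 32 of the 57 higher and 19 of the 35 lower subfamilies, more than 50% of the signal of the higher line came from 1 locus, as it did in 147 (17.4%) of all 843.

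LTR57, an endogenous retroviral LTR, had 13.2 and 13.8 RPM in SNU475, against 0.216 and 0.283 RPM in SNU398 (log2 difference 4.22 ± 0.11, adjusted p = 1.72e-26). Its copy at chr22:36663259-36663652 (hg19), within the bounds of APOL1, carried 89.2% of the SNU475 signal, and APOL1, an innate immune lipoprotein gene, had 21.5 and 22.1 RPKM in SNU475, against 0.0364 and 0.013 RPKM in SNU398. MST-int had 63.3 and 66.7 RPM in SNU475, against 5.63 and 6.04 RPM in SNU398 (log2 difference 3.37 ± 0.07, adjusted p = 1.2e-30), and 94.7% of the SNU475 signal was 1 copy in HLA-E (chr6:30461492-30461850), a non-classical class I gene with 159.9 and 160.2 RPKM in SNU475, against 13.4 and 13.7 RPKM in SNU398; without that copy the subfamily had 3.62 and 3.34 RPM in SNU475, against 2.14 and 2.44 RPM in SNU398. LOR1a and LTR2C likewise stood on copies in ALDH3B1 (84.8%) and QPRT (91.9%), genes with 29.6 and 29.7 RPKM in SNU475, against 0.0173 and 0.0302 RPKM in SNU398 and with 35.5 and 34.2 RPKM in SNU475, against 3.53 and 3.4 RPKM in SNU398. LTR35B stood on a copy in LAMA5 (92.4%). Outside genes MST-int, LOR1a and LTR2C had log2 differences of 0.26, 0.21 and 0.12 and were not called. HERVL18-int was spread over more loci, with 13.2 and 13.8 RPM in SNU475, against 0.895 and 1.26 RPM in SNU398 (log2 difference 3.16 ± 0.10, adjusted p = 3.84e-24), 23% at its highest copy, and 3.51 outside genes.

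REP522, a satellite, was the subfamily furthest toward SNU398, with 2.17 and 1.99 RPM in SNU475, against 44.6 and 45.1 RPM in SNU398 (log2 difference -4.14 ± 0.07, adjusted p = 1.78e-31). A copy at chr15:21904796-21906176 (hg19), outside annotated genes, had 0.0939 and 0.0787 RPM in SNU475, against 34.4 and 35 RPM in SNU398, 77.3% of the SNU398 signal. HERVE_a-int had 6.53 and 5.85 RPM in SNU475, against 31.5 and 33.7 RPM in SNU398 (log2 difference -2.31 ± 0.07, adjusted p = 8.7e-25), with 86.8% at chr4:35102633-35110390, also outside genes; without that copy the order turned, to 6.53 and 5.79 RPM in SNU475, against 4.12 and 4.48 RPM in SNU398. HUERS-P3-int and MER61E had their highest copies close together on chromosome 11, at chr11:17391921-17397927 in NCR3LG1 and at chr11:17400235-17400805. NCR3LG1, the ligand of an NK cell receptor, had 1.83 and 1.74 RPKM in SNU475, against 9.7 and 10.1 RPKM in SNU398. MER34-int stood on the copy that forms the gene ERVMER34-1 (0.0182 and 0.0327 RPKM in SNU475, against 2.93 and 3.03 RPKM in SNU398). HERVK-int had 10.8 and 9.86 RPM in SNU475, against 44.8 and 44.8 RPM in SNU398, with 81.9% in FGL1, and without that copy 9.25 and 9.76 RPM in SNU475, against 8.24 and 7.93 RPM in SNU398. These locus values were looked up after the subfamily values were seen.

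Over families, satellites were lower in SNU475, 11 of 15 called lower, 7 by at least 2-fold, and 1 higher, with summed levels of 62.4 and 64.0 RPM in SNU475, against 165 and 164 in SNU398. LTR12, the LTR of HERV9, was called lower in 4 of 7 subfamilies, 2 by at least 2-fold, and higher in 1, at 83.5 and 85.0 RPM in SNU475, against 148 and 149 in SNU398. SVA elements, a young composite family, were called higher in 5 of 6 and lower in 1, none by 2-fold, at 74.4 and 70.5 RPM in SNU475, against 61.9 and 62.7 in SNU398. Of 18 young L1 subfamilies (L1HS and L1PA), 9 were called higher and 5 lower, 1 in each direction by at least 2-fold. They summed to 1370 and 1383 RPM in SNU475, against 1145 and 1169 in SNU398. L1PA2, the higher of these by at least 2-fold and chosen after its values were seen, had 108 and 111 RPM in SNU475, against 33.4 and 34.6 RPM in SNU398 (log2 difference 1.67 ± 0.05, adjusted p = 9.01e-25). Its signal was spread widely, with 3.93% at the highest copy and 82 loci needed for 50%, and without that copy it had 104 and 106 RPM in SNU475, against 32.2 and 33.1 RPM in SNU398. Copies of young subfamilies share sequence, so the values of their single loci are uncertain. Without scaling between libraries, Alu subfamilies had 9 called higher and 8 lower of 34, none by 2-fold.

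**Figure D4:**
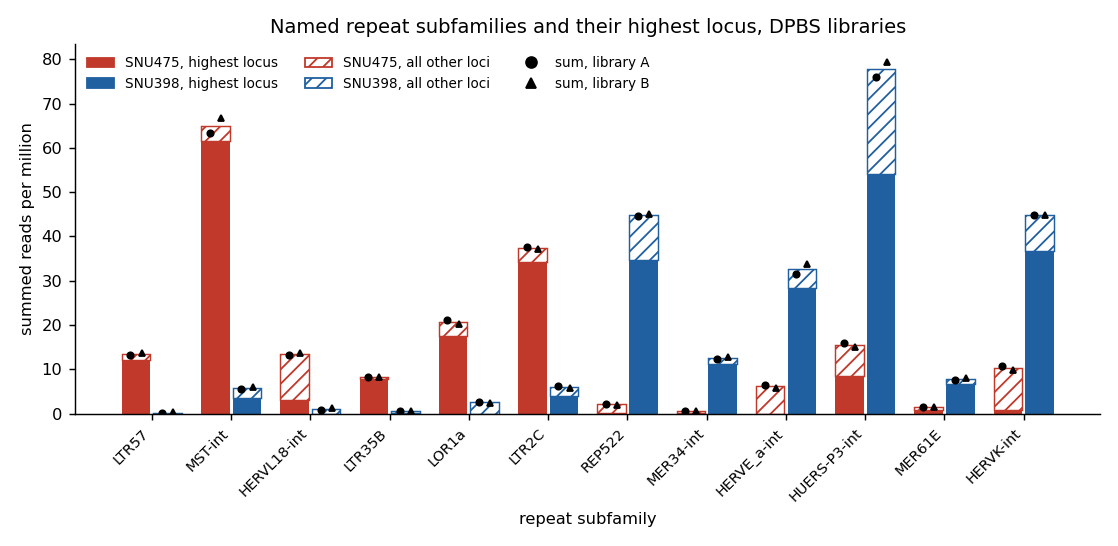
Summed RPM of the 12 named repeat subfamilies in SNU475 (red) and SNU398 (blue), with the mean of the highest locus as the solid part of each bar and all other loci hatched; black circles and triangles are the sums of libraries A and B. In all but HERVL18-int the solid part makes up most of the higher bar, from 69.8% in HUERS-P3-int to 94.7% in MST-int.

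The same line comparison was made within each treatment, in libraries that share none of the 4 DPBS libraries. The lines differed by at least 2-fold in 5224 genes (27.0%) under decitabine, 5237 (27.0%) under GSK-126 and 4948 (25.5%) under the combination. Under decitabine 4234 genes were at least 2-fold apart in the direction of the DPBS libraries, which is 72.0% of the DPBS list and 81.1% of the decitabine list, and none was opposite. Under GSK-126 the count was 3906 (66.5% and 74.6%), with 10 opposite, and under the combination 3836 (65.3% and 77.5%), with 4 opposite. The median of the detoxifying list was 2.83 under decitabine, 2.74 under GSK-126 and 2.56 under the combination, beside 3.10 in DPBS. For the interferon list it was 2.44, 2.54 and 2.52, beside 1.69. For proliferation genes it was -0.06, 0.39 and 0.06, beside -0.97 in DPBS, and for ribosomal protein genes -0.57, -0.51 and -0.44, beside -1.09.

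Some differences between the lines had other values in treated libraries. FGB had a log2 difference of 4.62 in DPBS and of 0.53, 0.88 and 0.37 in decitabine, GSK-126 and combination libraries. All its treated levels were under 1 RPKM and are given as measured. Under decitabine the lines overlapped, with 0.626 and 0.693 RPKM in SNU475, against 0.734 and 0.0183 RPKM in SNU398. Under the combination FGB stood at 0.373 and 0.265 RPKM in SNU475, against 0.06 and 0.215 RPKM in SNU398. CDH1 had 3.59 in DPBS and 2.35, 0.14 and 1.29 in the treated libraries, and under GSK-126 it stood at 1.02 and 1.06 RPKM in SNU475, against 0.913 and 0.88 RPKM in SNU398. MYL9 had 8.84 under GSK-126 and 5.28 under decitabine, at 632 and 636 RPKM in SNU475, against 16.2 and 15.4 RPKM in SNU398. GSTP1 had 7.0 under decitabine, at 436 and 438 RPKM in SNU475, against 2.94 and 2.87 RPKM in SNU398, so SNU398 held more of it than in DPBS while SNU475 remained far higher. H19 was not called in DPBS and had log2 differences of 3.06, 2.85 and 4.47 in decitabine, GSK-126 and combination libraries. Whether these differences changed with treatment was not tested as an interaction.

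**Figure D5:**
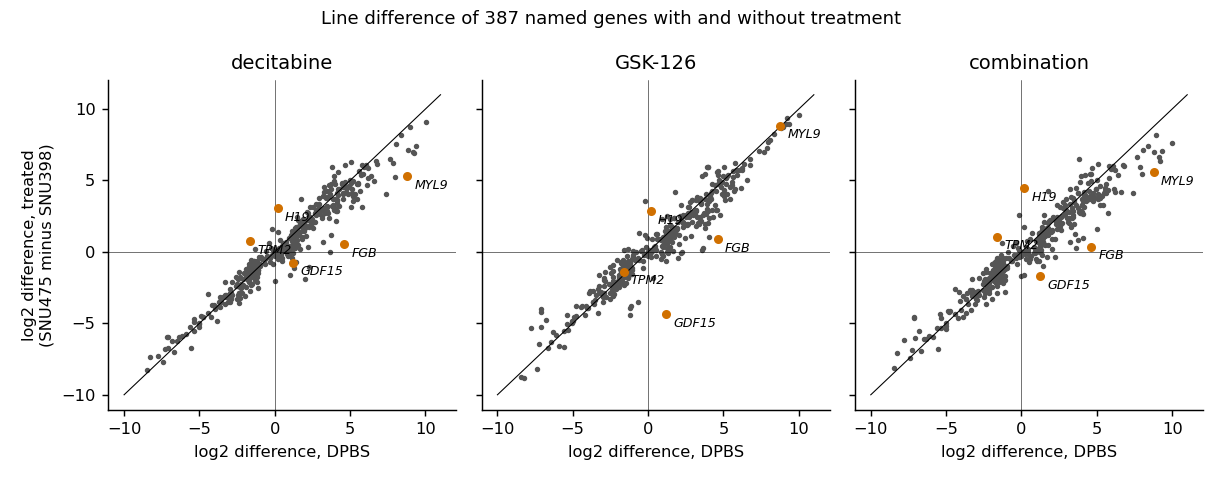
Log2 difference between SNU475 and SNU398 of 387 named genes in DPBS libraries (horizontal) and in decitabine, GSK-126 and combination libraries (vertical, left to right), with the line of equal difference. Most genes lie near that line; MYL9 falls below it under decitabine and the combination, FGB, GDF15 and H19 stand off it in all 3 panels, TPM2 under decitabine and the combination, and the labelled genes were chosen after their values were seen.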

How the data were processed

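RNA sequencing libraries of 3 cell lines and 4 treatments were analysed as deposited by the authors, in a table of 63677 genes and a table of 5298130 repeat loci. Values in both tables are RPKM, per the file headers and names; HISAT2, featureCounts and hg19 are named in the submitters' processing notes, with versions and the strand setting not given in the sources used here. In every library 100.0% of the low RPKM values checked were whole read numbers within 0.15 reads, so library sizes were recovered from them.

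RPKM were scaled by median of ratios over 8211 genes. Genes with at least 0.5 RPKM in at least 2 of the 24 libraries were tested with limma 3.58.1 (R 4.3.3) on log2(RPKM + 0.5), with 1 mean per line and treatment over all 24 libraries, 12 residual degrees of freedom and Benjamini-Hochberg adjustment over all 19377 genes. A fold change on this scale understates the change of low genes. Repeat RPKM were turned into RPM (reads scaled to library size), and loci were summed by subfamily without the median of ratios scaling. The 843 subfamilies with at least 1 RPM in 2 libraries were tested with the same limma model and a pseudocount of 0.5. The script was tested on simulated data. Tables used Python 3.11.15 with pandas 2.3.3 and numpy 2.4.6.

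Genes were named by rule. Over all genes these were the 12 highest and 12 lowest protein-coding and the 4 highest and 4 lowest long non-coding log2 differences. They came from called genes at 5 RPKM or more in the higher line, with no overlap between the libraries of the lines. Per list, up to 5 in each direction and the first 3 members were named. APOC1, B2M, CASP8, CCND1, CLDN7, IFITM1, MYC, S100PBP, SERPINA1, SLC7A11 and TXNRD1, the host genes of repeat copies and the locus values were chosen after their values were seen. The comparison and the 47 gene lists were chosen with earlier results of these data known. Y-linked genes and XIST were left out, and some genes that the rule names are not reported here. Alternatives were other pseudocounts, filters and scalings, voom on the recovered reads, fits to fewer libraries, a replicate block and leaving out each library.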

Additional observations from a re-analysis of the deposited data

Results flagged for a closer look

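Of 387 named genes, 22 were called in DPBS and in a treated set with opposite signs and no overlap of the libraries in either. For 3 of them the difference was at least 2-fold in both sets. GDF15, a stress-induced cytokine, had a log2 difference of 1.21 in DPBS, -4.35 under GSK-126 and -1.71 under the combination. HOXB5, a homeobox factor, had 1.42 in DPBS and -1.01 under the combination. TPM2, a tropomyosin, had -1.63 in DPBS and 1.06 under the combination. The change between DPBS and treatment was not tested for any of them. Groups hold 2 libraries, too few for a test of single outlying libraries.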

How the results depend on the processing

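The number of genes called at least 2-fold lower in SNU475 was 4044 with voom on recovered reads, against 2543. Called repeat subfamilies numbered 380 of 585 with only loci outside gene bodies, against 572 of 843. Runs of neighbouring genes at 0 in one line numbered 19 (SNU475) and 26 (SNU398) at under 0.05 RPKM, an alternative chosen after seeing the data, against 3 and 2. Signs turned for CTNNB1 without scaling (-0.055), and for MT-ND1 (-0.66) under quantile normalization. Leaving out each library gave 14447 to 14624 called genes, 3338 to 3376 at least 2-fold higher and 2513 to 2611 lower, and 473 to 497 called repeat subfamilies, 53 to 60 at least 2-fold higher and 33 to 40 lower. Of 47 list medians, 21 moved by more than 0.5 with voom, 15 with a pseudocount of 0.1, 4 with 1, and 14 with genes of at least 1 RPKM; of 94 list counts at 2-fold, 16, 10, 9 and 1 moved by more than 1.5 times under these, 6 under quantile normalization and 3 without scaling. With a pseudocount of 1, growth factor receptors had 3 lower and Polycomb genes 3 higher by 2-fold. Over 387 named genes and their alternatives, 5352 of 5389 values kept direction and call, 14 lost the call (6 genes), 21 gained it (11 genes) and 2 reversed. The line differences under treatment were computed without alternatives.

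With the letters A and B as a replicate block 15155 genes were called, 3335 at least 2-fold higher and 2541 lower, and 570 repeat subfamilies, 57 higher and 35 lower. Same-letter deviations correlated at r = 0.097 between the groups (range over all pairs of groups -0.118 to 0.244), under the 0.1 set for pairing. No label says that a letter marks a shared batch. In the DPBS libraries, library A nonetheless had a higher median level of the plasma protein genes abundant in HepG2 than library B in both lines. In treated libraries the order of ALB varied. Under decitabine it had 1.37 and 0.225 RPKM in SNU475, against 22.1 and 0.369 RPKM in SNU398. Under GSK-126 library B was the higher, with 1.17 and 3.06 RPKM in SNU475, against 1.67 and 4.6 RPKM in SNU398. Reads per library limit values near 0, where the low values of genes abundant in other lines also lie.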

Other observations

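Over protein-coding genes at 1 RPKM or more, the median log2 difference varied by chromosome. Of the nuclear chromosomes it was highest on chromosome 18 (1.02 over 150 genes, 88% higher in SNU475) and X (0.86 over 342 genes, 81.3%), and lowest on chromosome 19 (-0.38 over 731 genes, 34.8%), beside 1.24 over the 13 mitochondrial genes. Copy number was not measured.

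Some neighbouring genes were silent together. At exactly 0 in both SNU475 libraries, 3 runs included DSCR4, DSCR4-IT1, DSCR8 and DSCR10 (chr21:39323728-39580738, hg19), where DSCR8 had 0 and 0 RPKM in SNU475, against 1.89 and 2.29 RPKM in SNU398, and FERD3L with its antisense neighbours (chr7:19159556-19185876). At 0 in both SNU398 libraries, 2 runs held TUBAL3 with AKR1C7P, and ANXA8L1 with ANXA8L2. At under 0.05 RPKM, SNU398 lacked the inflammatory caspase genes CASP4, CASP1 and CARD16 (chr11:104813593-104972158), with CASP4 at 9.11 and 9.08 RPKM in SNU475, against 0.0095 and 0.0104 RPKM in SNU398. MIR143HG, host of miR-143 and miR-145, had 3.41 and 3.28 RPKM in SNU475, against 0.0017 and 0.0017 RPKM in SNU398. SNU475 lacked the alpha-protocadherins PCDHA10, PCDHA11 and PCDHAC1, PCDHA10 with 0.0172 and 0.0067 RPKM in SNU475, against 0.939 and 0.881 RPKM in SNU398. These runs were picked after their values were seen.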
